A study of Homo sapiens with 48 samples.

Results

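Before doxycycline was added, shXBP1 clone 1 and shXBP1 clone 18 of AMO1 cells were compared by RNA-seq. The libraries were chosen by their sample titles, which give the clone, the day and the replicate. There were 3 untreated libraries of each clone, 6 of the 48 libraries in the series.

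AMO1 is a human multiple myeloma cell line, a malignant counterpart of the antibody-secreting plasma cell. The study used it to separate what IRE1 does through its target XBP1 from what it does otherwise, in lines that carry shRNAs against IRE1 (shIRE1 clones 1 and 3) or against XBP1 (shXBP1 clones 1 and 18) under a doxycycline (Dox)-inducible promoter. The other libraries were made after 24, 48 or 72 h in 0.2 µg/ml Dox. Each group consisted of biological triplicates grown in T-75 flasks in RPMI with 10% FBS. Every line compared here, the shIRE1 clones included, is 1 clone selected with puromycin after piggyBac vectors with 3 shRNAs had been inserted, and the compared clones carry the same labelled shRNAs (XBP1 sh4,6,7). None of the 6 libraries received Dox, the inducer of the shRNAs. With 1 clone on each side, clone identity cannot be told apart from anything else that set the cultures apart.

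IRE1, encoded by ERN1, is an endoplasmic reticulum (ER) stress sensor whose RNase splices XBP1 mRNA. Spliced XBP1 is a transcription factor that drives genes for protein folding, quality control and secretion, and plasma cells depend on it for antibody output. Clones of a cancer line descend from single cells, and they can differ from each other in chromosome content, in gene silencing and in inflammatory state before any gene is targeted.

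Total counts lay between 28424128 and 36736372 in clone 1 and between 19177855 and 32611804 in clone 18. Levels are given as CPM, the counts of a gene as a share of the TMM-scaled library size, and 1 count was worth between 0.0272 and 0.0521 CPM. The plasma cell genes fixed as markers were all detected, and the B cell marker genes PAX5 and CD22 had 0 counts in all 6 libraries. MS4A1 stayed under 1 CPM in each library. Clone 1 replicate 1 stood apart from its group. Its mean chi-square per gene was 38.9 against replicate 2 and 39.3 against replicate 3, where those 2 differed by 2.5 and the clone 18 pairs by 2.71 to 4.63. Genes with GC-rich transcripts read higher in it: the median log2 deviation from the 12 untreated libraries of the series went from -0.28 in the lowest to 0.51 in the highest of 5 bins of GC content. In the other 5 libraries the lowest and highest bins lay between -0.07 and 0.12. Results are therefore also given without clone 1 replicate 1.

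**Figure D1:**
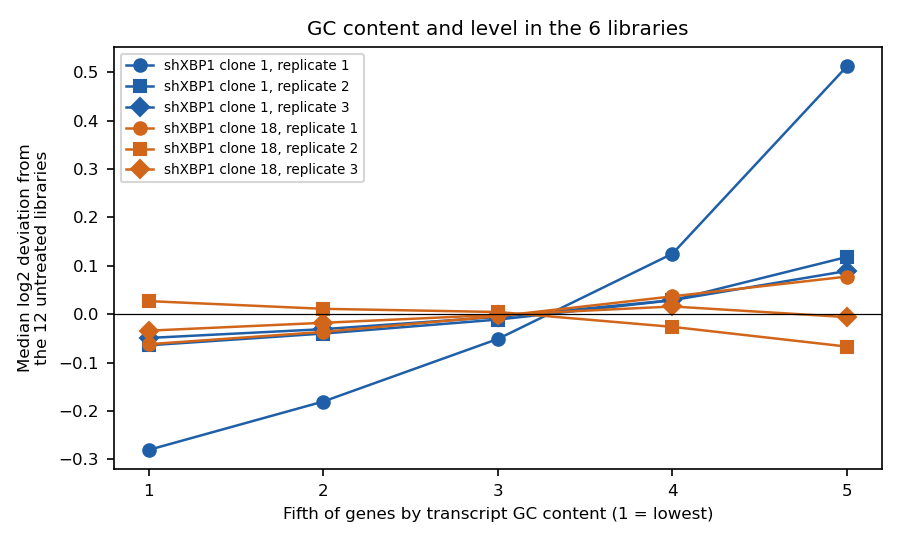
Median log2 deviation of gene levels from the mean of the 12 untreated libraries (y axis), for 5 bins of genes ordered by transcript GC content (x axis, lowest to highest). Each line is 1 of the 6 compared libraries (blue, clone 1; orange, clone 18), and clone 1 replicate 1 runs from -0.28 to 0.51 while the other 5 stay near 0.

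The untreated clones differed widely. Of 16616 genes tested with edgeR, 8948 passed an adjusted p of 0.05 (53.9%), of which 4694 were higher in clone 1 (28.2% of the genes tested) and 4254 higher in clone 18 (25.6%). At least 2-fold differences were called in 2009 genes, 833 higher in clone 1 (5.01%) and 1176 higher in clone 18 (7.08%). In 9999 of the genes tested (60.2%) the libraries of the 2 clones did not overlap, so such separation was common. Without clone 1 replicate 1 there were 8861 calls, and the 2-fold counts were 640 and 1277. In the same fit, 7210 genes (43.4%) differed between the untreated shIRE1 clones 1 and 3. Across 11979 genes with a mean log2 CPM above 1, Pearson's r between clone means was 0.959 for shXBP1 clones 1 and 18, 0.986 for shXBP1 clone 1 and shIRE1 clone 1, and 0.972 for shXBP1 clone 18 and shIRE1 clone 3. Between shIRE1 clones 1 and 3 it was 0.979. It was 0.967 for shXBP1 clone 1 and shIRE1 clone 3, and 0.957 for shXBP1 clone 18 and shIRE1 clone 1. These are correlations across genes, which are not independent replicates.

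A part of the differences was seen again in other flasks. The same clones were compared at 24 h and 48 h of Dox, in 6 further libraries each, where 6144 (35.5%) and 5613 (32.5%) of 17287 genes were called. Those cells had their shRNAs induced, so the contrast there also holds whatever differed in the response. In 3299 genes the call went the same way at 0, 24 and 48 h, 1454 higher in clone 1 (8.81% of the 16500 genes tested at every time) and 1845 higher in clone 18 (11.2%). Such genes are called persistent below. Of the 8948 genes called at 0 h, 3299 were thus persistent, and 167 were called in the opposite direction at 24 h and 238 at 48 h. Of the 3299, 3224 were also called in the same direction without clone 1 replicate 1. Persistence was uneven: it held for 69.8% of the genes at least 2-fold higher in clone 18 (821 of 1176) and for 30.5% of those at least 2-fold higher in clone 1 (254 of 833). The 579 genes at least 2-fold higher in clone 1 that did not persist had a median transcript GC content of 58.8%, against 48.5% for the 254 that did and 47.5% for all genes tested. Without clone 1 replicate 1, 346 of those 579 were still called and at least 2-fold apart. With the GC trend of each library removed, a correction chosen after the data were seen, 615 genes were at least 2-fold higher in clone 1 and 1316 in clone 18.

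**Figure D2:**
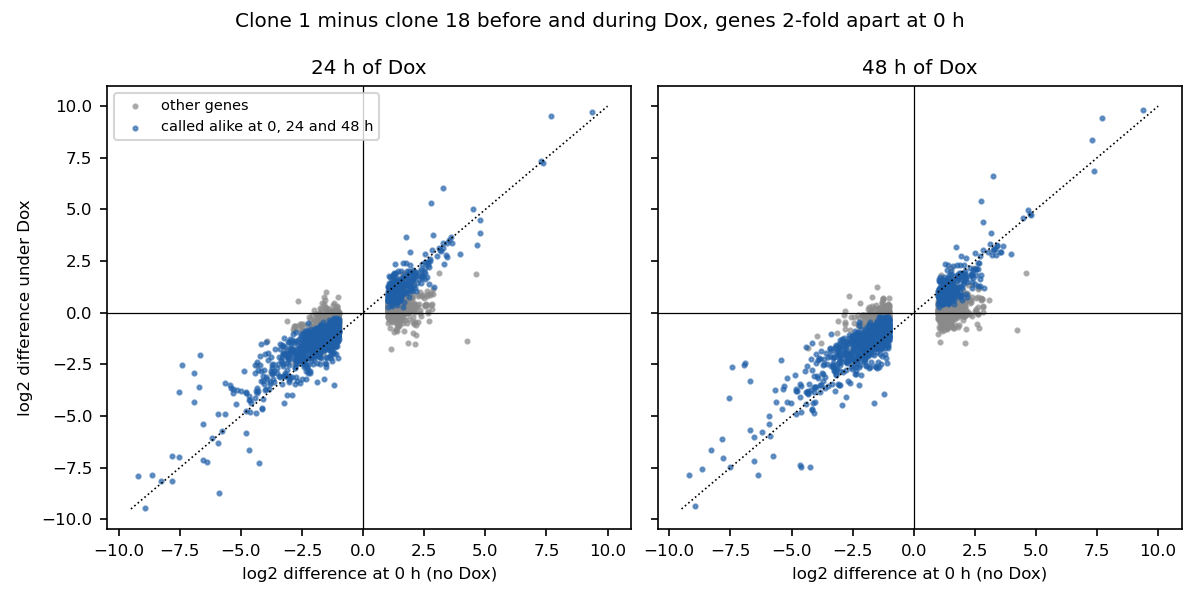
Log2 difference, clone 1 minus clone 18, at 0 h without Dox (x axis) against the same difference at 24 h (left) and 48 h (right) of Dox (y axes), for the 2009 genes called and at least 2-fold apart at 0 h. Blue points are the 1075 genes called in the same direction at all 3 times, grey points are the others, and the dotted line marks equal values.

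The mRNA of XBP1, the gene the shRNAs are aimed at, was level before induction. Counts per gene do not separate its spliced from its unspliced form. XBP1 stood at 158, 170 and 173 CPM in clone 1 and at 166, 178 and 167 CPM in clone 18, with overlapping groups. The log2 difference (clone 1 minus clone 18, as throughout) was 0.01 ± 0.07 (SE; edgeR adjusted p = 0.938). Under Dox XBP1 was lower in clone 1, by -0.46 at 24 h and -0.31 at 48 h, and was called at both times. Mean levels there were 45.3 against 62.6 CPM and 35.9 against 44.5 CPM. ERN1 differed at 0 h: 190, 192 and 183 CPM in clone 1 against 418, 410 and 413 CPM in clone 18, so every clone 18 library was above every clone 1 library. Its difference was -1.10 ± 0.04 (adjusted p = 2.12e-10), and it was -0.30 at 24 h and -0.21 at 48 h. The untreated shIRE1 clones bracketed this range, with 152 ± 2.37 CPM in clone 1 and 438 ± 15.4 CPM in clone 3 (SD, n = 3). IRF4, a plasma cell transcription factor required for myeloma cell survival, was at 1358, 1436 and 1444 CPM in clone 1 and at 1623, 1638 and 1610 CPM in clone 18. The groups did not overlap, but the difference was small at -0.17 ± 0.04 (adjusted p = 0.00458), and it was -0.02 at 24 h and 0.02 at 48 h.

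The list counts below are to be read beside the shares over all genes tested. Of these, 28.2% were higher in clone 1 and 25.6% in clone 18, and 8.81% and 11.2% persisted. The unfolded protein response genes leaned towards clone 18. Of 13 ER stress sensors and transducers tested, 10 were higher in clone 18, 7 of them persistently, and 1 was higher in clone 1, with a median of -0.25 against 0.03 for all genes. MBTPS2, the site-2 protease that releases ATF6, was at 24.0, 28.3 and 27.7 CPM in clone 1 and at 73.0, 77.6 and 76.0 CPM in clone 18. CREB3L2, a membrane-bound transcription factor of the secretory pathway, differed by -1.30 ± 0.04, and EIF2AK3, which encodes PERK, by -0.91 ± 0.05 (both persistent). TRAF2, an adaptor of IRE1 signalling, was higher in clone 1 by 0.39 ± 0.11 (adjusted p = 0.00842), and the call was lost without clone 18 replicate 2 and with the GC trend removed (0.32 and 0.08).

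Among 47 targets of spliced XBP1, 30 were higher in clone 18 and 5 in clone 1, and 20 and 3 persisted. XBP1 mRNA was itself lower in clone 1 under Dox (-0.46 at 24 h and -0.31 at 48 h). The part of that difference in the persistence of its targets was not tested. The median was -0.28 (-0.24 without clone 1 replicate 1). HERPUD1, a component of ER-associated degradation, was at 610, 597 and 600 CPM in clone 1 and at 1643, 1626 and 1648 CPM in clone 18, a difference of -1.41 ± 0.05 that was -0.94 at 24 h and -0.95 at 48 h. WIPI1, an autophagy protein, differed by -1.37 ± 0.07. The direction was not shared by all members. HYOU1, an ER chaperone, was higher in clone 1 at 1492, 1438 and 1456 CPM against 1208, 1152 and 1200 CPM (0.34 ± 0.04). SDF2L1 was at 88.5, 47.7 and 43.1 CPM in clone 1 and at 31.6, 28.8 and 29.7 CPM in clone 18. Its difference of 1.03 fell to 0.63 without clone 1 replicate 1.

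Of 23 ER chaperones and oxidoreductases, 13 were higher in clone 18 and 6 in clone 1 (median -0.17). The peroxiredoxin gene PRDX4 differed by -1.19 ± 0.05, while HSPA5, the master chaperone BiP, was higher in clone 1 by 0.41 ± 0.05, at 2045, 1880 and 1880 CPM against 1469, 1518 and 1486 CPM. Both persisted. Of 28 genes of the ATF4 pathway and the integrated stress response, 15 were higher in clone 18 and 7 in clone 1. Of these 3 and 0 persisted, beside 11.2% and 8.81% of all genes, so the clone 18 count was near the share over all genes. DDIT3, which encodes CHOP, was at 23.9, 25.2 and 25.8 CPM in clone 1 and at 63.3, 55.3 and 61.8 CPM in clone 18. Its difference was -1.24 ± 0.07 at 0 h, 0.14 at 24 h and 0.13 at 48 h, the later values not passing the test. ATF4 itself differed by 0.02 ± 0.07 (adjusted p = 0.860).

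Of 18 genes for antibody chains and their assembly, 9 were tested, and 4 of these were higher in each clone, with 1 persistent. JCHAIN, which joins IgA and IgM into polymers, was at 2857, 3553 and 3592 CPM in clone 1 and at 6816, 7189 and 7100 CPM in clone 18 (-1.04 ± 0.08, persistent). IGKC, the kappa light chain constant gene, differed by -0.50 ± 0.07 at 0 h but by 0.09 at 24 h and -0.10 at 48 h. IGHA2 was at 887, 386 and 370 CPM in clone 1 and at 244, 194 and 191 CPM in clone 18, and its difference of 1.42 was 0.88 without clone 1 replicate 1. Constant genes of this locus resemble one another, so reads may have been split between them.

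The persistent genes with a mean log2 CPM above 1 and the largest differences in favour of clone 18 were led by FGR. FGR, a kinase of the SRC family (chr1:27612064-27635185, GENCODE 44 on GRCh38), was at 0.335, 0.115 and 0.333 CPM in clone 1 and at 107, 102 and 108 CPM in clone 18. The log2 difference was -8.65 ± 0.17 (edgeR adjusted p = 6.34e-13) and stayed at -7.84 at 24 h and -7.58 at 48 h. GAS7, a cytoskeletal protein gene, was at 4.09, 3.82 and 4.74 CPM against 124, 117 and 121 CPM (-4.81 ± 0.10). S100A4, a calcium-binding protein linked to cell motility, was at 9.85, 11.4 and 10.6 CPM against 192, 198 and 199 CPM (-4.17 ± 0.08). Groups without overlap at 0 h were a condition for choosing these leading genes. ABCB1, which encodes the drug efflux pump P-glycoprotein, was at 1.00, 1.09 and 1.96 CPM in clone 1 and at 28.2, 28.9 and 26.0 CPM in clone 18, a difference of -4.34 ± 0.17.

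The other leading genes of clone 18 were ADA2 (-5.34), a secreted adenosine deaminase, the leukocyte receptor LILRA2 (-4.88), APOL3 (-4.79), the microtubule-associated EML1 (-4.62), the transcription factor FOXP2 (-4.38), the surface protein CD99 (-4.34), the potassium channel KCNN3 (-4.13) and the chemokine CCL3L3 (-6.54). All 12 passed the test at 0, 24 and 48 h because the choice required it. CCL3L3 has near-identical copies and CD99 lies in a region shared by the sex chromosomes, so their counts may hold reads of more than one copy. The untreated shIRE1 clones did not reach the clone 18 level in any of the 12: FGR was at 4.67 and 8.41 CPM in shIRE1 clones 1 and 3, GAS7 at 11.2 and 8.73 CPM, and S100A4 at 8.72 and 20.2 CPM. The next gene in the order, ARHGEF6, was at -4.10.

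In favour of clone 1, the 12 leading genes of the same kind differed by 2.55 to 4.49. ZNF85, a zinc finger gene (chr19:20923222-20950697), was at 8.61, 9.79 and 9.06 CPM in clone 1 and at 0.335, 0.553 and 0.309 CPM in clone 18 (4.49 ± 0.19, adjusted p = 4.72e-10). NRP2, a co-receptor of semaphorins and VEGF, was at 52.4, 49.5 and 50.8 CPM against 5.59, 5.89 and 4.82 CPM (3.26 ± 0.10). ETS1, a transcription factor of lymphocytes, was at 87.2, 102 and 99.6 CPM against 14.4, 16.1 and 16.1 CPM (2.66 ± 0.08). Being apart in every library was again a condition of the choice. Without clone 1 replicate 1 the differences of these 3 genes were 4.52, 3.23 and 2.72. PDGFA, a growth factor, differed by 3.41, the channel subunit LRRC38 by 3.42, ZNF462 by 3.11, the transcription factor NFIB by 3.04, the dendritic and B cell surface gene CD83 by 2.75, the sorting receptor SORL1 by 2.72, the piRNA methyltransferase HENMT1 by 2.63 and BCL11A, a repressor of fetal globin genes, by 2.55.

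CPLX1, a regulator of vesicle release, was at 10.3, 4.16 and 3.74 CPM in clone 1 and under 1 CPM in clone 18. Its difference of 2.89 was 2.27 without clone 1 replicate 1 and 1.26 and 1.21 at 24 and 48 h. In the shIRE1 clones most of these genes read near clone 1, such as NRP2 at 60.9 and 56.4 CPM and ZNF85 at 5.83 and 10.2 CPM. SORL1 was higher there than in either shXBP1 clone. ETS1, at 52.2 and 39.2 CPM, and CPLX1, at 2.41 and 1.48 CPM, lay between the shXBP1 clones. The next gene in the order, EVPL, was at 2.54.

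**Figure D3:**
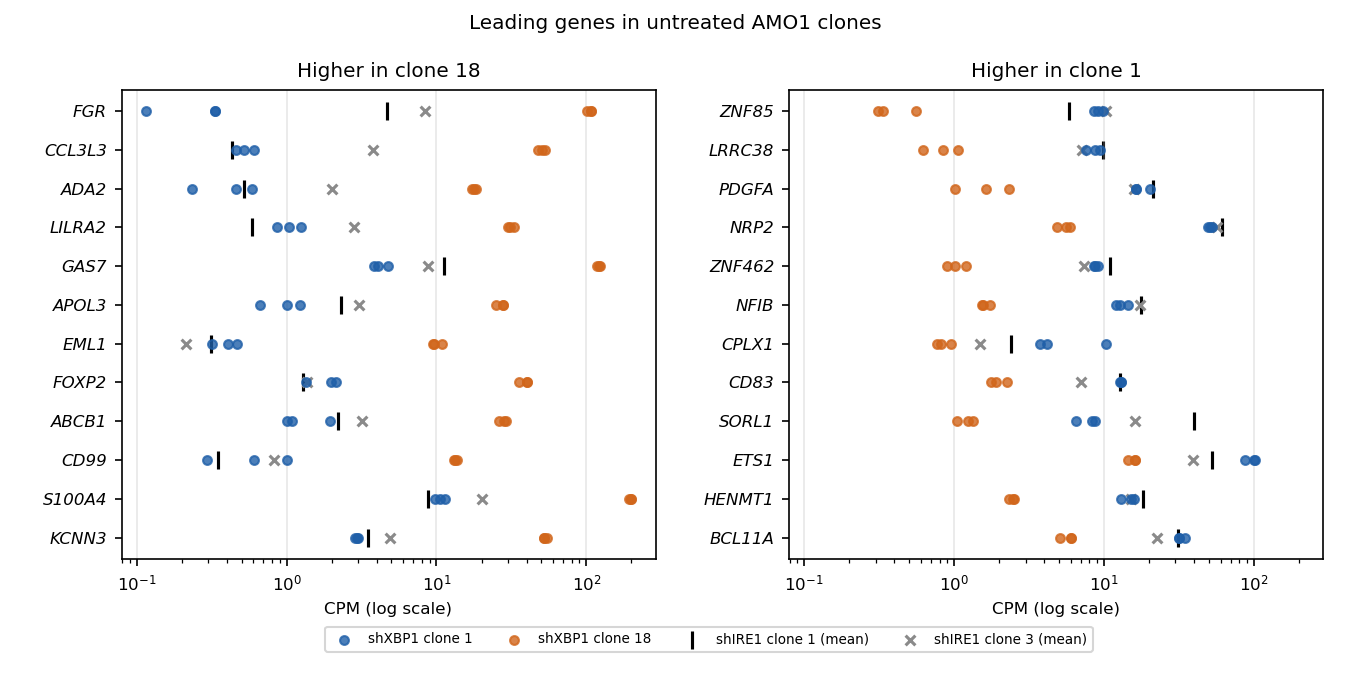
CPM on a log axis (x) of the 12 persistent genes with the largest differences in each direction among those with a mean log2 CPM above 1 (y), in each of the 3 untreated libraries of clone 1 (blue) and clone 18 (orange), with shIRE1 clone means (black bars, clone 1; grey crosses, clone 3). FGR lies between 0.115 and 0.335 CPM in clone 1 and between 102 and 108 CPM in clone 18, and ETS1 between 87.2 and 102 against 14.4 and 16.1 CPM.

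The shIRE1 clones served as a reference for which shXBP1 clone stood apart, as a description with no test. Of the 2009 genes at least 2-fold apart, both shIRE1 clones were nearer to shXBP1 clone 1 in 847 and both nearer to clone 18 in 384, on the log scale, and they were split in 778. Among the 821 persistent genes higher in clone 18, shIRE1 clone 1 was nearer to shXBP1 clone 1 in 93.5% and shIRE1 clone 3 in 65.7%. Among the 355 genes higher in clone 18 that did not persist, the shares were 85.6% and 27.6%. So in most of the second set shIRE1 clone 3 was nearer to shXBP1 clone 18. BTG2, an antiproliferative gene, persisted at a much smaller size, and the shIRE1 clones lay on opposite sides: 96.4, 98.4 and 100 CPM in clone 1, 479, 468 and 492 CPM in clone 18, and 119 ± 2.94 and 411 ± 21.6 CPM in shIRE1 clones 1 and 3 (SD, n = 3). Its difference was -2.25 at 0 h and still called at -0.49 at 24 h and -0.44 at 48 h. HSPA1B, a heat shock gene with a near-identical copy, did not persist. It differed by -1.88 at 0 h, -0.16 at 24 h and -0.05 at 48 h, with 5.80 and 18.9 CPM in shIRE1 clones 1 and 3.

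Interferon-stimulated genes, which encode antiviral proteins and are switched on by interferon signalling, were higher in clone 18. Of 31 tested, 24 were higher in clone 18, 0 were higher in clone 1, and 20 persisted, with a median of -1.20 (-1.15 without clone 1 replicate 1, -0.81 at 24 h, -0.76 at 48 h). OAS2, which senses double-stranded RNA, was at 17.4, 20.6 and 18.1 CPM in clone 1 and at 100, 103 and 99.8 CPM in clone 18 (-2.39 ± 0.07). The largest differences were at low levels. MX1, a GTPase that blocks viruses, was at 0.134, 0.0861 and 0 CPM against 0.727, 0.879 and 0.695 CPM (-3.24 ± 0.60), and RSAD2, which encodes viperin, at 0.201, 0.115 and 0.222 CPM against 1.29, 1.46 and 1.70 CPM (-3.03 ± 0.38). None of these groups overlapped, as was the case for 60.2% of all genes tested.

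STAT2, a transducer of the interferon signal, was at 64.2, 67.4 and 69.4 CPM against 155, 159 and 159 CPM (-1.20 ± 0.05), with -0.27 at 24 h and -0.22 at 48 h. IRF1, an interferon-induced transcription factor that was not in the list, was at 6.73, 6.60 and 6.84 CPM against 31.2, 29.0 and 29.6 CPM (-2.12 ± 0.08). Some classical members did not pass. ISG15 was at 6.23, 2.79 and 2.11 CPM in clone 1 and 5.70, 3.48 and 4.09 CPM in clone 18 (-0.19, adjusted p = 0.663), and USP18 and IRF7 stood at 0.49 and 0.16 (adjusted p = 0.211 and 0.655).

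The promoters of these genes are shown because interferon acts through a short element in them. RefSeq promoters (250 bases before to 50 after the start, GRCh38.p14) were at hand for 23 of the 31 genes, and 17 held the core of the interferon-stimulated response element (GAAA, any 2 bases, then GAAA) on either strand, where 996 of all 27305 promoters (3.65%) did. Of those 17 genes 13 were higher in clone 18, and so were 6 of the 6 without a match. The promoters below run 5′ to 3′ on the strand of the gene, with matches to the core in capitals.
MX1 (chr21:41420308-41420607, plus strand): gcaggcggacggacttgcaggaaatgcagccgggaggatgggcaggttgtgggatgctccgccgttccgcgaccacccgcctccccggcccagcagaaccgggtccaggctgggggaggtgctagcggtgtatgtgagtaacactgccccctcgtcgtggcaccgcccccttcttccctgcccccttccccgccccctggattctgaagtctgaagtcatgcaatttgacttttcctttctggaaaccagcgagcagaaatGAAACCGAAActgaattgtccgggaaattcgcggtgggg
IFI6 (chr1:27672143-27672442, minus strand): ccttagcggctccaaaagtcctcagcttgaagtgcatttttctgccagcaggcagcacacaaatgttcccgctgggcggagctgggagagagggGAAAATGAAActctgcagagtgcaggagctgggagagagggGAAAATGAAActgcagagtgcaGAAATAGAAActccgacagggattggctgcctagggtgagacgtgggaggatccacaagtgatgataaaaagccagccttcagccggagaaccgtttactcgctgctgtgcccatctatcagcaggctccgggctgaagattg
IFIT1 (chr10:89392373-89392672, plus strand): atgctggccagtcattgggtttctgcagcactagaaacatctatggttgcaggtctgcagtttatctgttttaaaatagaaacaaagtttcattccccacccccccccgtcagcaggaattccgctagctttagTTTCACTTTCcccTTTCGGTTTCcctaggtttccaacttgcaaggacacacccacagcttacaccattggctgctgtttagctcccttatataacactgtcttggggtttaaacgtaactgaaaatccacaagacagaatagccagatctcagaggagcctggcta
IFIT3 (chr10:89327747-89328046, plus strand): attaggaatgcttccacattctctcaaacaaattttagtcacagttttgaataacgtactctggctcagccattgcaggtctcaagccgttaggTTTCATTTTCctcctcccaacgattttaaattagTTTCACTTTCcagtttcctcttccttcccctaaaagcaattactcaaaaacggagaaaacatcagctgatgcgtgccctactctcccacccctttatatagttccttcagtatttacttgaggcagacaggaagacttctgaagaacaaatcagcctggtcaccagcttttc
IFIT1, which binds viral RNA, was at 0.502, 0.488 and 0.592 CPM in clone 1 and at 1.79, 1.69 and 1.97 CPM in clone 18 (-1.75 ± 0.18). IFIT3 was at 4.45, 6.69 and 6.03 CPM against 14.5, 14.4 and 15.1 CPM (-1.32 ± 0.12), and IFI6 differed by -1.77 ± 0.25. A match is a description of the sequence and not evidence that the element was used.

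Antigen presentation went the same way. MHC class I carries peptides from inside the cell to CD8 T cells, and of its 20 genes tested 14 were higher in clone 18, 10 persistently, and 1 in clone 1 (median -0.57). B2M, the light chain of all class I molecules, was at 1656, 1869 and 1819 CPM in clone 1 and at 3689, 3761 and 3834 CPM in clone 18 (-1.04 ± 0.06), and HLA-F differed by -1.16 ± 0.13. TAP1, which pumps peptides into the ER, was at 129, 109 and 111 CPM against 234, 221 and 223 CPM. NLRC5, the transcriptional activator of class I genes, differed by -0.63 ± 0.08. PSME2, a proteasome activator subunit, was the 1 gene higher in clone 1, at 0.18 ± 0.07 (adjusted p = 0.0357), and it lost the call in 12 of the alternative fits. HLA genes are near copies of one another and vary between people, so their single values are uncertain.

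MHC class II presents to CD4 T cells. Of 13 genes 10 were higher in clone 18, all of them persistently, and 1 in clone 1, with a median of -0.64 at 0 h, -0.84 at 24 h and -0.80 at 48 h. HLA-DQA1 was at 21.7, 23.3 and 21.9 CPM in clone 1 and at 78.6, 78.3 and 79.0 CPM in clone 18 (-1.78 ± 0.08), and HLA-DPA1 at 90.6, 88.6 and 89.6 CPM against 238, 239 and 243 CPM (-1.39 ± 0.04). The member higher in clone 1 was CIITA, the master activator of class II transcription, at 57.4, 47.4 and 49.9 CPM against 40.7, 36.7 and 41.8 CPM (0.41 ± 0.09). Its difference was -0.11 at 24 h and -0.21 at 48 h.

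Chemokine genes separated the clones as well. Of 11 genes for chemokines and their receptors, 7 were higher in clone 18 and 1 in clone 1, each persistently. CCL3, which attracts monocytes and drives bone loss in myeloma, was at 35.9, 48.6 and 35.0 CPM in clone 1 and at 412, 392 and 435 CPM in clone 18 (-3.34 ± 0.13), with 43.4 and 198 CPM in shIRE1 clones 1 and 3. CCL3 and CCL4 have near-identical copies, among which reads may be split. CCL4 was at 0.148 CPM or less in clone 1 and between 2.66 and 3.13 CPM in clone 18. CXCR4, the receptor that holds plasma cells in bone marrow, was the member higher in clone 1, at 291, 296 and 294 CPM against 135, 132 and 141 CPM (1.14 ± 0.05), with 268 and 275 CPM in the shIRE1 clones. Its difference was 0.60 at 24 h and 0.43 at 48 h.

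Of 16 B cell surface and receptor genes, 10 were higher in clone 18 and 2 in clone 1, with a median of -0.69. Clone 18 held more mRNA of the signalling genes BLK and SYK and of the receptors FCER2 and FCRLA. FCRLA was at 1.11, 1.23 and 0.518 CPM in clone 1 and at 16.5, 16.9 and 15.9 CPM in clone 18 (-4.04 ± 0.23), and the tetraspanin CD37 at 8.27, 7.81 and 6.92 CPM against 52.7, 46.3 and 48.3 CPM (-2.64 ± 0.09). These genes were also low in both shIRE1 clones, CD37 for instance at 1.60 and 1.89 CPM. The genes higher in clone 1 were CD83 and TNFRSF13C, the BAFF receptor (0.55 ± 0.20, adjusted p = 0.0305).

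Several surface proteins that serve as myeloma antigens differed. Of 30 tested, 18 were higher in clone 18 and 8 in clone 1 (median -0.55). TNFRSF17, which encodes BCMA, was at 163, 182 and 176 CPM in clone 1 and at 372, 379 and 373 CPM in clone 18 (-1.08 ± 0.06). SLAMF7 was at 165, 189 and 186 CPM against 395, 400 and 405 CPM (-1.12 ± 0.06), and GPRC5D at 116, 115 and 110 CPM against 286, 270 and 275 CPM (-1.25 ± 0.05). In all 3 the clones were apart in every library, as in 60.2% of all genes tested. The differences at 48 h were -0.39, -0.54 and -0.74. NCAM1, which encodes CD56, was at 14.6, 16.6 and 17.1 CPM against 67.0, 61.9 and 65.5 CPM. CD38 was nearly level, at 199, 215 and 200 CPM against 191, 197 and 185 CPM (0.14 ± 0.05, adjusted p = 0.0290). SDC1, which encodes CD138, was at 15245, 11967 and 11102 CPM against 8217, 7530 and 7929 CPM. Its difference of 0.73 was 0.58 without clone 1 replicate 1, 0.05 at 24 h and -0.06 at 48 h.

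Integrins, cadherins and matrix genes leaned to clone 18, with 19 of 35 higher there, 14 persistently, and 7 higher in clone 1 (median -0.54). ITGB7, the integrin that binds MAdCAM and E-cadherin, was at 46.7, 41.2 and 36.4 CPM in clone 1 and at 255, 238 and 254 CPM in clone 18 (-2.55 ± 0.09). ITGB1, the common beta chain of many matrix receptors, differed by -0.90 ± 0.07. The tetraspanin CD9 and the integrin ITGAX had the largest persistent differences, -4.08 ± 0.46 and -4.01 ± 0.23, from levels of 0.345 CPM or less in clone 1. The laminin LAMA5 was higher in clone 1, at 137, 60.9 and 56.6 CPM against 34.3, 28.8 and 29.4 CPM, and the difference was 0.97 without clone 1 replicate 1.

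Proliferation genes were mostly higher in clone 1. Of 42 S phase genes 38 were higher in clone 1 and 1 in clone 18, and 25 and 1 persisted, with a median of 0.48 both with and without clone 1 replicate 1, 0.27 at 24 h and 0.21 at 48 h. Of 51 G2/M genes 44 and 1 were, of which 13 and 1 persisted (median 0.44, then 0.20 and 0.14). In bulk RNA a larger share of cells in these phases and more RNA per cell cannot be told apart. PCNA, the clamp of the replication fork, was at 559, 554 and 571 CPM in clone 1 and at 329, 331 and 322 CPM in clone 18 (0.81 ± 0.04). CDCA7 was at 78.6, 92.6 and 92.0 CPM against 38.3, 42.0 and 38.2 CPM (1.18 ± 0.07), and CDCA3, a mitotic trigger, at 85.5, 73.2 and 74.3 CPM against 43.6, 37.7 and 38.2 CPM (1.00 ± 0.08).

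UHRF1, which maintains DNA methylation, differed by 1.25 (0.98 without clone 1 replicate 1), but by 0.39 at 24 h and 0.10 at 48 h. The proliferation marker MKI67 was at 524, 564 and 590 CPM against 426, 414 and 481 CPM (0.38 ± 0.14, adjusted p = 0.0307). The 2 members higher in clone 18 both lie in chromosomal regions described below: POLA1, a DNA polymerase subunit, at 63.0, 72.0 and 72.0 CPM against 107, 106 and 105 CPM, and CKAP2 (-0.26 ± 0.06).

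E2F factors drive S phase genes through sites in their promoters. With TTTCCCGC and TTTGGCGC searched on both strands, 13 of the 31 S phase genes with a RefSeq promoter had a match and 2 of 43 G2/M genes did, beside 631 of all 27305 promoters (2.31%). Of the 13, 10 were higher in clone 1, and of the 18 without a match all 18 were. The promoters of PCNA and CDC6, which loads the replicative helicase, are printed with matches in capitals.
PCNA (chr20:5126573-5126872, minus strand): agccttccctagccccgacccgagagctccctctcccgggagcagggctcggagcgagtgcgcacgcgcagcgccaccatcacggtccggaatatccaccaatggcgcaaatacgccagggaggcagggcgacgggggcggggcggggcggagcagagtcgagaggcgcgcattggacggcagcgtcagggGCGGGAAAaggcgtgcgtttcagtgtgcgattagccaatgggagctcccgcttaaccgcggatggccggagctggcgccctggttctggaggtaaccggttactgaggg
CDC6 (chr17:40287629-40287928, plus strand): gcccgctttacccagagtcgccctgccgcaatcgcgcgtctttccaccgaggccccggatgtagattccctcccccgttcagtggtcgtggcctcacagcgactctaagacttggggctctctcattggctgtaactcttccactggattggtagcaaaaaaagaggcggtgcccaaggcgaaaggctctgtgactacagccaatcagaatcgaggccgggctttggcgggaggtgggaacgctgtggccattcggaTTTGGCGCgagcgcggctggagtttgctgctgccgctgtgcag
CDC6 was at 262, 282 and 282 CPM in clone 1 and at 182, 179 and 175 CPM in clone 18 (0.66 ± 0.05). E2F1 itself differed by 0.50 ± 0.08 at 0 h (0.40 without clone 1 replicate 1), by 0.30 at 24 h and by 0.02 at 48 h.

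Of 22 G1 regulators, 9 were higher in clone 1 and 4 in clone 18, beside 28.2% and 25.6% of all genes, with a median of 0.12. The retinoblastoma gene RB1, a brake on entry into S phase, was at 108, 133 and 140 CPM in clone 1 and at 227, 245 and 229 CPM in clone 18 (-0.85 ± 0.08), and its relative RBL2 at 53.7, 60.0 and 62.7 CPM against 136, 142 and 137 CPM (-1.20 ± 0.06). CCND1, cyclin D1, was higher in clone 1 at 28.3, 25.3 and 24.6 CPM against 12.2, 10.5 and 10.5 CPM (1.28 ± 0.08). All 3 persisted. CDKN2A, which encodes p16 and ARF, was at 58.0 CPM in clone 1 replicate 1, at 27.9 and 28.8 CPM in its other replicates and between 14.7 and 18.3 CPM in clone 18.

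Genes of cell death and survival differed in both directions. Of 28 genes in the list of p53 and its targets, 18 were higher in clone 1 and 8 in clone 18. Of these 9 and 2 persisted, and the list median was 0.34. The pro-apoptotic BAX differed by 0.70 ± 0.07 and the death receptor FAS by 0.60 ± 0.06, both persistently. BBC3, which encodes PUMA, was at 57.0, 34.1 and 29.2 CPM against 17.9, 14.8 and 13.9 CPM (1.41, or 1.07 without clone 1 replicate 1). In the BCL2 family, 10 of 18 were higher in clone 18 and 6 in clone 1 (median -0.21), but of these only BAX persisted. The shares over all genes were 25.6% and 28.2%. BCL2 was at 216, 270 and 259 CPM against 418, 442 and 446 CPM (-0.78 ± 0.07) and MCL1 at 1629, 1799 and 1739 CPM against 2310, 2438 and 2322 CPM (-0.42 ± 0.05). At 48 h these 2 differences were -0.02 and 0.08.

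**Figure D4:**
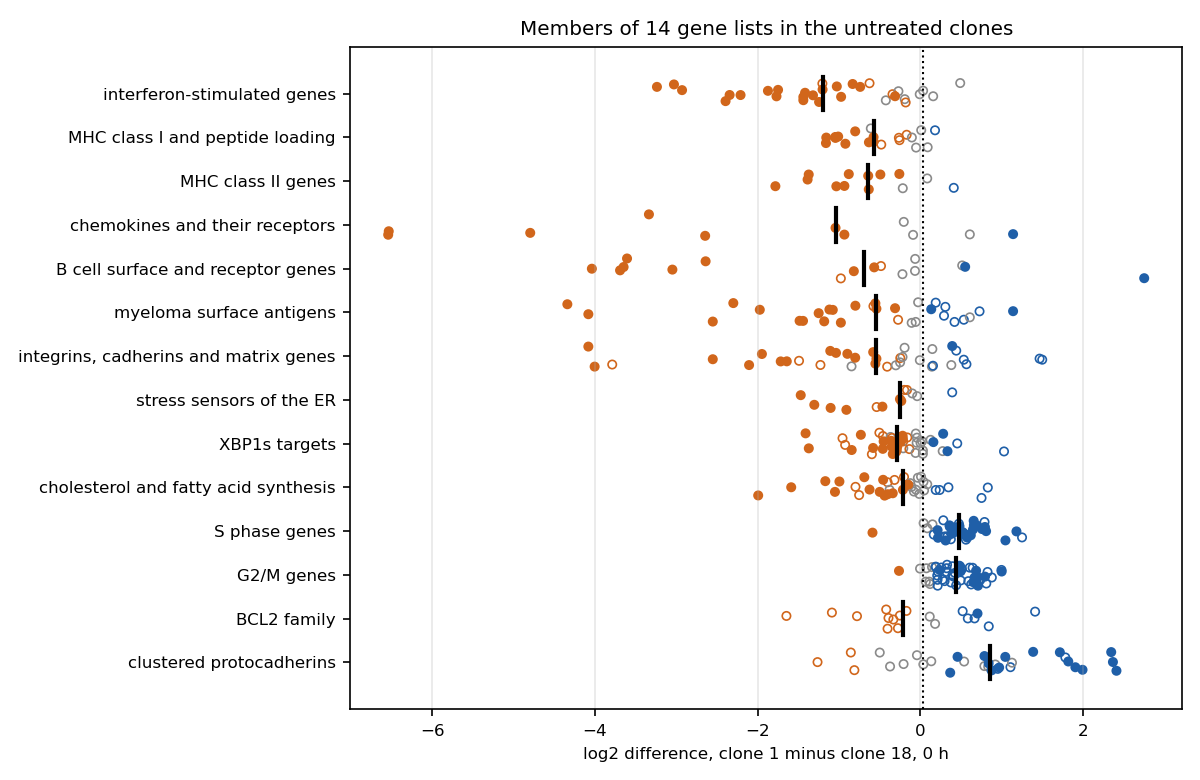
Log2 difference at 0 h, clone 1 minus clone 18 (x axis), of the tested members of 14 gene lists (y axis). Filled points persisted at 24 and 48 h, open coloured points were called at 0 h but did not persist, grey points did not pass the test, black bars are list medians, and the dotted line is the median of all genes (0.03). The interferon-stimulated genes lie around -1.20 and the S phase genes around 0.48.

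Among transcription factors of plasma and B cells the clones split evenly, with 9 of 24 higher in clone 1 and 10 in clone 18. The shares over all genes were 28.2% and 25.6%. Beside ETS1, RUNX1 was at 44.3, 44.8 and 46.3 CPM in clone 1 and at 14.3, 14.7 and 14.8 CPM in clone 18 (1.66 ± 0.07), with 0.51 at 24 h. MYC was at 1954, 1549 and 1581 CPM against 1048, 965 and 976 CPM (0.80 ± 0.08, 0.68 without clone 1 replicate 1), with 0.49 and 0.34 at 24 and 48 h. ZBTB38, which binds methylated DNA, was at 281, 347 and 339 CPM against 1029, 1068 and 1056 CPM (-1.67 ± 0.09). ID3, an inhibitor of E proteins, differed by -1.23 ± 0.14. PRDM1, which encodes BLIMP-1, was nearly level at 0.13.

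In the cytokine pathway 14 of 34 genes were higher in clone 18 and 12 in clone 1, beside 25.6% and 28.2% of all genes. The PIM kinases parted: PIM2 was at 485, 477 and 466 CPM in clone 1 and at 1310, 1262 and 1296 CPM in clone 18 (-1.40 ± 0.05), while PIM1 was at 174, 171 and 161 CPM against 60.3, 59.9 and 60.1 CPM (1.52 ± 0.06). JAK2 was at 10.4, 11.3 and 12.1 CPM against 31.4, 33.1 and 29.7 CPM (-1.45 ± 0.09). All 3 persisted. In NF-kappaB signalling 7 of 21 genes were higher in each clone, and only CYLD, a deubiquitinase that curbs the pathway, persisted (-0.97 ± 0.07). Nothing particular to the cytokine or NF-kappaB list is read from these counts.

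Cholesterol and fatty acid synthesis genes, which SREBP factors control, were higher in clone 18 in 19 of 35 cases, 14 persistently, and higher in clone 1 in 5, none persistently (median -0.21). INSIG1, the ER anchor that holds SREBP back, was at 257, 303 and 287 CPM in clone 1 and at 854, 882 and 868 CPM in clone 18 (-1.59 ± 0.07). HMGCS1, an early enzyme of the pathway, was at 334, 422 and 391 CPM against 848, 894 and 894 CPM (-1.17 ± 0.07), and the acetyl-CoA synthetase ACSS2 differed by -1.99 ± 0.09. FASN, fatty acid synthase, was at 834, 440 and 393 CPM against 348, 288 and 325 CPM, and its 0.83 became 0.41 without clone 1 replicate 1.

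The clustered protocadherins, cell surface proteins of which single cells express small sets, were higher in clone 1 in 18 of 32 cases and higher in clone 18 in 3, with 15 and 0 persistent. The median was 0.86 (0.80 without clone 1 replicate 1, 0.82 at 24 h and 0.80 at 48 h). PCDHB6 was at 21.5, 19.9 and 18.9 CPM in clone 1 and at 5.76, 5.60 and 6.14 CPM in clone 18 (1.82 ± 0.09), and PCDHB5 at 10.1, 9.36 and 10.3 CPM against 2.35, 1.86 and 1.78 CPM (2.37 ± 0.12). PCDHB8 had the largest difference, 2.41 ± 0.21. The 3 members higher in clone 18, PCDHGA5, PCDHGB2 and PCDHGB1, belong to the gamma cluster, whose members share their last exons, so reads there could not be given to single genes. In the shIRE1 clones PCDHB6 was at 20.8 and 17.5 CPM and PCDHB5 at 9.96 and 8.62 CPM, near clone 1.

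Zinc finger genes as a class did not lean at 0 h, with 111 of 417 higher in clone 1, 125 in clone 18 and a median of 0.00. Of these 44 and 22 persisted, beside 8.81% and 11.2% of all genes. The list median was 0.05 at 24 h and 0.10 at 48 h. Single members were on in one clone and nearly off in the other. ZNF649 was at 0.904, 1.35 and 1.37 CPM in clone 1 and at 0.112, 0.0326 and 0 CPM in clone 18 (4.79 ± 0.57). The neighbouring ZNF577 was at 0.871, 0.718 and 0.740 CPM against 0.0559, 0.0326 and 0 CPM. ZNF350, in the same stretch of chromosome 19, went the other way, at 0, 0 and 0.0740 CPM in clone 1 and at 0.839, 0.488 and 0.695 CPM in clone 18 (-4.61 ± 0.70), and it was at 0.0109 and 0 CPM in the shIRE1 clones. ZNF222 likewise was at 0, 0 and 0.0740 CPM against 0.447, 0.619 and 0.425 CPM. All 4 persisted.

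Genes with at most 3 counts over all 3 libraries of one clone and at least 30 in each library of the other numbered 8. In clone 1 alone were ZNF738, with 90, 150 and 96 counts against 0, 0 and 1, and LINC01224, with 75, 111 and 86 counts against 0, 0 and 0. Taking 3 counts over the group as the floor, they were at least 91.6-fold and 74.2-fold higher in clone 1. In clone 18 alone were BOK-AS1, the growth factor genes ANGPT1 and PTN, CCL4L2, AC243829.1 and LINC02147. PTN, pleiotrophin, had 49, 86 and 67 counts against 0, 0 and 0 and was at least 82.3-fold higher. ANGPT1, the ligand of TIE2, had 60, 100 and 76 counts against 3, 0 and 0 and was at least 96.1-fold higher. Under Dox the counts stayed on the same side: PTN had 1 count over the 3 clone 1 libraries at 24 h and 318 in clone 18, and ZNF738 had 332 and 0. In the untreated shIRE1 clones PTN and ANGPT1 had 0 counts, ZNF738 had 291 and 242, and LINC02147, at 0 counts in clone 1, had 391 and 699. CCL4L2 and AC243829.1 overlap near-identical copies, and with strand use unknown BOK-AS1 cannot be told from its sense partner.

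Differences were also arranged along chromosomes. Genes with a mean log2 CPM above 1 were ordered by position (GENCODE 44, GRCh38, matched by gene ID), and runs of 51 neighbours with a median beyond 0.3 in either direction were joined, which gave 20 regions. The values at 0 h chose these 20 regions and are a description, while those at 24 and 48 h were not used in that step. In 7 regions, with 819 of the 11917 ordered genes, the median stayed beyond 0.2 at 0 h, without clone 1 replicate 1, at 24 h and at 48 h. The values of these 7 at 24 and 48 h were thus a condition of their choice.

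The clearest lay on the short arm of chromosome X and the start of the long arm, chrX:276322-65534810, from PLCXD1 to LAS1L. Of its 174 genes 127 were called higher in clone 18 and 17 higher in clone 1, and 119 and 10 persisted. The median was -0.81 at 0 h, -0.87 without clone 1 replicate 1, -0.82 at 24 h and -0.87 at 48 h. Against shIRE1 clones 1 and 3, the medians were -0.03 and -0.02 for shXBP1 clone 1 and 0.84 and 0.76 for clone 18, so clone 18 was the one that stood apart. The region holds MBTPS2, PRDX4, PIM2, CD99 and POLA1, named above, the metalloproteinase inhibitor TIMP1 (24.8, 23.3 and 23.3 CPM against 109, 102 and 104 CPM), the histone demethylase KDM6A (24.2, 27.8 and 26.8 CPM against 60.6, 63.7 and 59.4 CPM) and the sterol isomerase EBP (-1.05 ± 0.06).

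Smaller shifts covered long stretches elsewhere. On chromosome 13, chr13:19304593-99086625, 180 genes had a median of -0.31 at 0 h, -0.30 at 24 h and -0.25 at 48 h, RB1 among them. Here both shXBP1 clones departed from the shIRE1 clones, clone 1 by -0.18 and -0.13 and clone 18 by 0.14 and 0.19. On chromosome 16, chr16:30949068-67719339, 123 genes had medians of -0.31, -0.29 and -0.30, with HERPUD1, NLRC5, CYLD and RBL2 inside, and clone 18 was above the shIRE1 clones by 0.35 and 0.33 while clone 1 was within 0.04 of them.

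Regions higher in clone 1 were chr11:118359600-134319564 (83 genes, 0.30, 0.32 and 0.31 at 0, 24 and 48 h), which holds ETS1 and SORL1, chr12:280057-22544546 (133 genes, 0.27, 0.33 and 0.30), which holds CDCA3 and RAD51AP1, chr1:144421390-150697154 (52 genes, 0.29, 0.24 and 0.25) and chr1:161721544-179229684 (74 genes, 0.26, 0.27 and 0.38). In the regions of chromosomes 11 and 12, clone 18 lay below both shIRE1 clones, by medians of -0.26 and -0.26 on chromosome 11 and of -0.23 and -0.25 on chromosome 12, and clone 1 was within 0.03 of them. DNA copy number was not measured here. CD4 and GPRC5D lie in these regions and went against them.

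Of the 2745 persistent genes among the 11917, 437 lay in the 7 regions and 2308 lay outside. Of the 616 that were at least 2-fold apart, 114 lay inside (18.5%). The regions were chosen by these same differences, so a high share inside them follows from the choice and is given as a description alone.

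**Figure D5:**
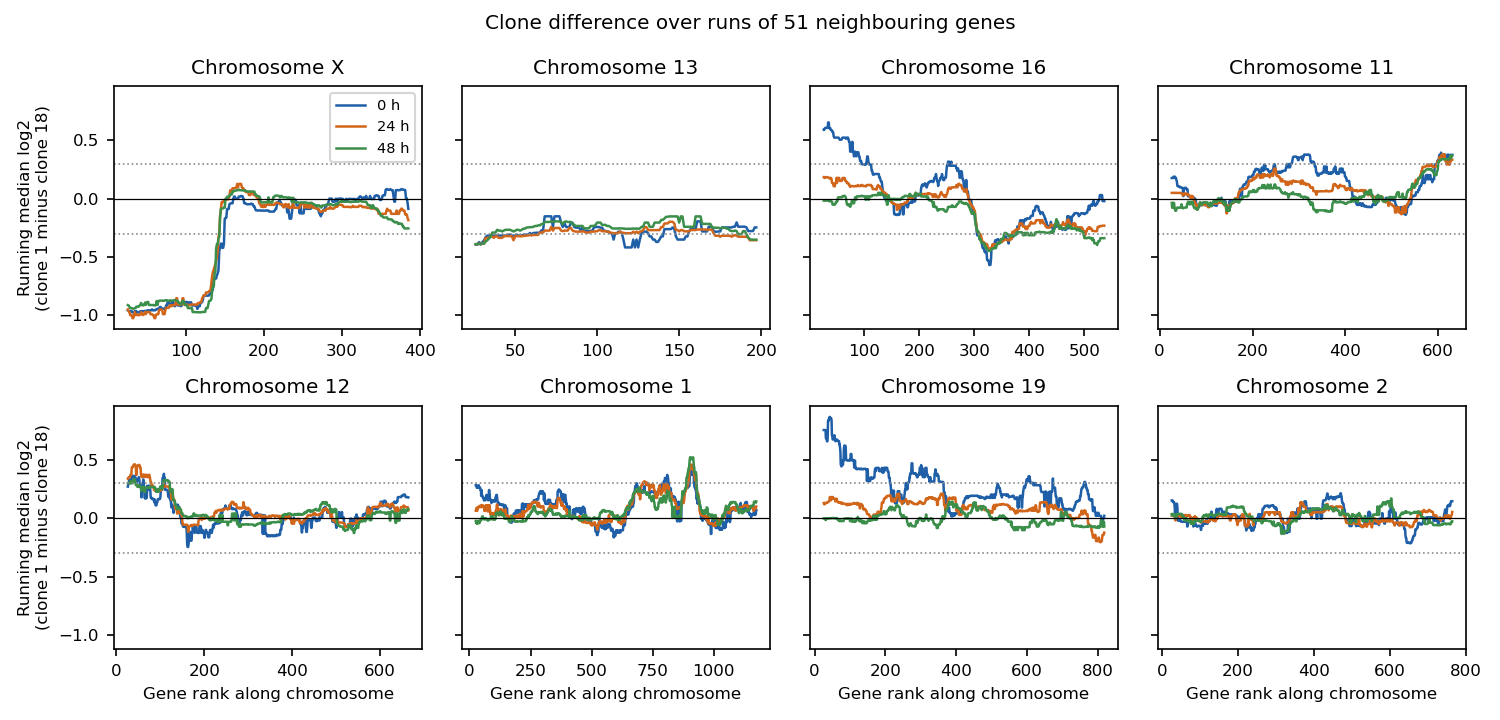
Running median of the log2 difference, clone 1 minus clone 18, over 51 neighbouring genes (y axis) along the gene order of 8 chromosomes (x axis), at 0 h (blue), 24 h (orange) and 48 h (green). Dotted lines mark 0.3 and -0.3. Chromosome X starts near -1 at all 3 times, while the rise over chromosome 19 and the start of chromosome 16 is seen at 0 h and is near 0 at 48 h.

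The other 13 regions did not stay beyond 0.2 in all of these. They include a stretch of 389 genes on chromosome 19 from MIER2 to ZNF714, with medians of 0.42 at 0 h, 0.27 without clone 1 replicate 1, 0.13 at 24 h and 0.00 at 48 h, and 132 genes at the start of chromosome 16 from POLR3K to METTL22, with 0.50, 0.26, 0.15 and -0.01. The median transcript GC content was 59.8% and 60.5% there, against 47.3% for all ordered genes. With the GC trend of each library removed, the medians at 0 h were 0.15 and 0.15. Chromosome X kept -0.89 under that correction. Among the other 13 were also stretches of chromosome 6 higher in clone 18, from ALDH5A1 to HLA-J (51 genes) and from BAG6 to PFDN6 (56 genes). Their medians were -0.31 and -0.21 at 0 h, and -0.32 and -0.26 without clone 1 replicate 1. With the GC trend removed they were -0.38 and -0.30. The values were -0.17 and -0.13 at 24 h, and -0.14 and -0.16 at 48 h.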

How the data were processed

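The authors made stranded, poly(A)-selected libraries (TruSeq Stranded mRNA, 100 ng of RNA) and sequenced single-end reads of 50 bases. Per the submitters' processing notes, GSNAP, R 4.1.3, edgeR 3.32.1 and limma 3.46.0 were used, and GRCh37/hg19 is named; how strand was counted is not given in the sources used here. The deposited files hold raw read counts per gene for 58302 genes, and a log2 table that the authors normalized by TMM and that was used only as an alternative. Its values could be recomputed from the counts with edgeR.

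Counts were tested with edgeR 4.0.16 (R 4.3.3; quasi-likelihood, TMM, filterByExpr with a minimum count of 10 and total of 15, Benjamini-Hochberg adjustment, threshold 0.05), on the 12 untreated libraries of all 4 clones for 0 h and on 18 libraries for 24 and 48 h. Every adjusted p is from these edgeR fits, and the SE of a log2 difference is its size divided by the square root of its F statistic. Because replicates are flasks of 1 clone, p-values measure the spread between flasks. Positions were taken from GENCODE 44 on GRCh38 by gene ID. Transcript GC content came from the same annotation (99.3% of genes).

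The clones, gene lists and tests were chosen with earlier results of these data known. Named genes were XBP1, ERN1 and IRF4, the 12 with the largest difference each way among those that passed at 0, 24 and 48 h without overlap at 0 h and with a mean log2 CPM above 1, and the called members with the 2 largest differences each way in each of 47 lists. Other members named, and the genes seen in 1 clone alone, were chosen after their values were seen. Alternatives were DESeq2 1.42.0, limma 3.58.1 on the deposited log2 table, RLE factors, no filter, other sets of libraries, a replicate block, leaving out each library, other window sizes and a GC offset, the last added after the data were seen. The fits were tested on simulated data. Some genes are not reported here.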

Additional observations from a re-analysis of the deposited data

How the results depend on the processing

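The 13 counts of genes kept their size within 1.5 times in all 163 alternative values. At 0 h, 8948 genes became 8299 with DESeq2, 9051 with limma on the deposited log2 table, 8879 with RLE factors, 9190 with no filter, 8159 with the 6 compared libraries alone, 9462 with all 48 libraries, 9791 with those except the library labelled shXBP1 clone 18 72 h replicate 3, and 9759 with the GC offset, which was chosen after seeing the data. That library was left out because it read like clone 1: of the 1075 persistent genes at least 2-fold apart, 898 were nearer to untreated clone 1 than to untreated clone 18, against 39 and 49 in the other 72 h libraries of clone 18. It entered no other comparison. Leaving out 1 library gave 7683 to 8861. Replicate numbers did not pair the samples: the deviations of same-numbered libraries correlated at 0.156, 0.0978 and 0.0143. With a replicate block the calls numbered 8713 without Dox, 5719 after 24 h and 5188 after 48 h of it, with 3269 persistent genes in place of 3299.

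The number of regions was the least stable value. The 20 regions became 54 with windows of 25 genes and 11 with windows about 2 times as wide as those used, 10 from the 24 h libraries and 10 from the 48 h libraries. Leaving out 1 library gave 13 to 23, with 13 without clone 1 replicate 1. Of 2800 values for 187 named genes, 2713 kept direction and call and 87 kept direction but lost the call, most often PSME2 (12) and TAGLN (10). No direction was reversed. Of 705 list medians 268 moved by more than the spread between replicates, and of 105 region medians 24 did. The cause was not tested.

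With 1 clone on each side, nothing here separates a property of a clone from its culture. Low levels, such as those under 1 CPM, rest on few counts.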

Other observations

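Where 53.9% of all genes tested were called, the calls in guidance and signalling lists were as follows. Of 36 semaphorin, plexin, ephrin and netrin genes 8 were higher in clone 1 and 15 in clone 18, of 31 TGF-beta and BMP genes 6 and 14, of 28 WNT genes 7 and 4, and of 24 NOTCH genes 9 and 4, and nothing particular to these lists is read from the counts. SEMA3C, a secreted semaphorin, was at 8.64, 9.91 and 10.8 CPM in clone 1 and at 48.1, 54.4 and 49.4 CPM in clone 18 (-2.34 ± 0.09). DCC, the netrin receptor, was at 38.2, 43.5 and 46.9 CPM against 151, 156 and 162 CPM (-1.83 ± 0.08). FZD7, a WNT receptor, differed by -1.84 ± 0.09 and SMAD3, a TGF-beta transducer, by -1.48 ± 0.06. NOTCH3 and HEY2, a NOTCH target, were higher in clone 1, by 1.81 ± 0.18 and 1.92 ± 0.22. All 6 were called in the same direction at 24 and 48 h.

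IDH2, a mitochondrial isocitrate dehydrogenase, was at 0.804, 0.459 and 1.11 CPM in clone 1 and at 8.89, 8.11 and 8.76 CPM in clone 18 (-3.43 ± 0.20), with 1.62 and 4.03 CPM in shIRE1 clones 1 and 3. HBG2, a fetal globin gene with a near-identical copy, was at 0.0335, 0 and 0.0370 CPM against 1.06, 0.716 and 0.540 CPM (-4.80 ± 0.57). CD4, a co-receptor of T cells, was at 106, 111 and 111 CPM against 508, 487 and 499 CPM (-2.15 ± 0.04), and of 4 T cell markers tested 3 were higher in clone 18, all persistently. The others were CD3E, at 4.59, 5.69 and 5.66 CPM against 10.1, 11.9 and 11.1 CPM (-1.03 ± 0.10), and TRAC, at 1.47, 1.38 and 0.703 CPM against 4.36, 3.39 and 4.17 CPM (-1.68 ± 0.26). CD8A did not pass (-0.10), CD2 and CD8B had 0 counts in all 6 libraries, and CD3D had 1. The part of other cells in these levels was not tested. The counts of other lists stand beside 28.2% of all genes higher in clone 1 and 25.6% in clone 18. Of 83 ribosomal protein genes 20 were higher in clone 1 and 26 in clone 18 (median -0.03). Of 192 solute carriers 52 and 59 were (-0.03). Of 36 proteasome subunits 13 and 4 were (0.09), a lean to clone 1, and 2 and 3 persisted. The counts higher in clone 1 and in clone 18 were 15 and 11 of 37 glycolysis and hypoxia genes, 14 and 4 of 30 antioxidant genes, 11 and 4 of 19 heat shock genes and 11 and 8 of 24 genes for DNA methylation, TET and polycomb enzymes. They were 30 and 10 of 109 nuclear respiratory chain genes, 5 and 2 of 13 mitochondrial mRNAs, 5 and 3 of 12 reported IRE1 cleavage targets, 6 and 3 of 19 cancer-testis antigens, 6 and 7 of 17 imprinted genes, 5 and 3 of 13 HOX genes, 4 and 2 of 25 histone genes and 4 and 6 of 23 ABC transporters. The antioxidant, heat shock and respiratory chain calls also leaned to clone 1. Of these lists 1 and 2, 2 and 1, and 4 and 4 genes persisted. Summed levels of marker genes of other cells lay between 114 and 120 CPM in clone 1 and between 504 and 524 CPM in clone 18 for T cells, nearly all of it CD4. The myeloid sum stayed under 1 CPM in every library.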
